A study of Mus musculus with 3 samples.

Results

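Low-Gfap astrocytes were taken from single-cell RNA sequencing of the mouse arcuate nucleus, the hypothalamic region that senses and controls energy balance. A droplet barcode belonged to them when 500 or more genes were detected in it and mitochondrial transcripts did not exceed 20%, when the transcripts of Agt, Ntsr2, Slc6a11 and Slc1a2 summed to at least 10 with at least 3 of these 4 genes detected, and when Gfap stood below 5 transcripts. Rax (tanycytes), Cx3cr1 (microglia), Cldn5 (endothelial cells) and Mog (oligodendrocytes) each had to be below 2. A transcript here is a unique molecular identifier (UMI), which marks 1 captured molecule. The rule held for 2890 of the 14869 barcodes that passed the limits on genes and mitochondrial transcripts. Since measured transcripts chose the members, the 9 genes of the rule and the levels of members against other cells are given as a description.

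Astrocytes are the glia that take up glutamate and GABA from synapses, buffer potassium and water, and supply neurons with lactate, glutamine and lipid. Gfap, an intermediate filament protein, is abundant in fibrous and reactive astrocytes and scarce in the protoplasmic astrocytes of grey matter. Angiotensinogen (Agt) is a known product of hypothalamic astrocytes, Ntsr2 encodes a neurotensin receptor, and Slc6a11 and Slc1a2 encode the GABA transporter GAT3 and the glutamate transporter GLT-1.

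The study compared 3 groups of male C57BL/6JRj mice, 5-6 weeks old, that were put on their diets at weaning. The first ate standard chow (SC) for 15 days, the second ate SC for 10 days and then HFHS, rich in fat and sugar, over the next 5 days, and the third ate HFHS for 15 days. Arcuate nuclei of 6 mice were micropunched, pooled and dissociated with collagenase/dispase and papain for each group, so each diet is 1 library of a 10x Genomics 3' kit. With 1 pool per diet no test between diets exists: every difference below has no replicate check, and intervals cover counting error only, not mice, pools or preparations.

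The SC, 5-day and 15-day libraries held 43193012 to 59315940 UMIs over 6204 to 7823 barcodes. Low-Gfap astrocytes were shallow, with medians of 3104.5, 4129 and 2882 UMIs and 1581.5, 1925 and 1520.0 genes per cell. The median mitochondrial share was 10.9%, 10.7% and 9.57%. Libraries shared a few barcodes: 13 were common to SC and 5-day, 72 to SC and 15-day and 85 to 5-day and 15-day. Of the low-Gfap astrocytes, 5 SC, 10 5-day and 4 15-day barcodes were shared, and none was a member in both libraries. The 72 and 85 barcodes of any cell type shared with the 15-day library were shallow there, with medians of 642.5 and 678 UMIs. They were deep in the other library, with medians of 86486.5 UMIs in SC and 77471 UMIs in the 5-day library. Without all shared barcodes the shares of members changed by less than their intervals.

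Members lay well inside the marker limit, with median marker sums of 42, 57 and 41 UMIs in the SC, 5-day and 15-day libraries. Just inside it, 14, 11 and 17 barcodes had a sum of 10, and just outside it 15, 15 and 15 otherwise eligible barcodes had a sum of 9. For Gfap, 15, 14 and 21 members had 4 UMIs and 8, 20 and 10 barcodes outside the rule had 5. No Gfap UMI was seen in 526, 487 and 878 members. The limit on Gfap therefore cut the tail of a distribution in which most members had 0 or 1 UMI.

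The label was checked against transcripts that the rule did not use. Here and below, counts of list genes above or below the other barcodes come without the share of all genes. They describe the lists only. All 20 genes of an astrocyte list (Aqp4, Gja1, Aldoc, Slc1a3 and others) were higher in low-Gfap astrocytes than in the other kept barcodes. Their summed level was 20124, 22122 and 24401 counts per 1e+06 UMIs (CPM) in the SC, 5-day and 15-day members, against a mean of 4134 CPM in the other barcodes. Defining genes of other types stood at different levels. Endothelial genes summed to 34.7 to 39.9 CPM and microglial genes to 141 to 231 CPM, against 15603 CPM in the Cldn5 barcodes and 45306 CPM in the Cx3cr1 barcodes. A tanycyte list, which holds genes such as Ptn and Nnat, summed to 5998, 5565 and 5586 CPM in the members, against 26631 CPM in the Rax barcodes, and 85.6%, 89.5% and 91.4% of members had at least 5 of its UMIs. An oligodendrocyte list summed to 1572, 1328 and 1525 CPM, against 71533 CPM in the Mog barcodes, and 43.9%, 50.1% and 40.0% of members had at least 5 of its UMIs. At least 5 UMIs of a neuron, oligodendrocyte precursor (OPC), ependymal or pericyte list were found in 168 (20.3%), 179 (22.4%) and 188 (14.9%) of them. These 535 barcodes had medians of 6168.5, 8190 and 5095.5 UMIs and held 45.8%, 49.1% and 32.9% of all UMIs of the members. Results that rest on summed UMIs are therefore given for all 2890 members and, where they differ, for the 2355 members without those barcodes, called cleared members below. Clearing removed barcodes by those 4 lists only: the oligodendrocyte list stood at 1942, 1564 and 1606 CPM, the microglial list at 255, 275 and 176 CPM and an erythrocyte list at 78.1, 2719 and 2379 CPM in the cleared SC, 5-day and 15-day members.

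The profile of the members was that of transport and metabolic support, and each gene below stood in the same range in the 3 libraries. Levels of single genes are those of all members, and sums of lists are given for the cleared members as well. Slc1a3, the glutamate transporter GLAST, stood at 2695, 2973 and 3669 CPM in the SC, 5-day and 15-day members, against 332 CPM in the other barcodes. Slc7a10, a transporter of small amino acids including D-serine, stood at 701, 751 and 832 CPM, against 20.4 CPM. Glul, the glutamine synthetase, stood at 985, 1193 and 1325 CPM, against 451 CPM. Of the 15 genes of glutamate, GABA and glycine handling, 13 were higher in the members than in the other barcodes. This list summed to 8346, 9009 and 10282 CPM in all SC, 5-day and 15-day members. In the cleared members, which differed less between libraries, it summed to 11880, 12450 and 12636 CPM. The 4 genes that chose the members were set high by the rule. In the SC, 5-day and 15-day members Agt stood at 2765, 2991 and 3304 CPM, against 98.1 CPM in the other barcodes, Ntsr2 at 1351, 1380.3 and 1622 CPM, against 51.4 CPM, Slc6a11 at 2039, 2209 and 2373 CPM, against 128 CPM, and Slc1a2 at 4321, 4261 and 5044 CPM, against 349 CPM.

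Ion and water handling followed the same pattern, with 17 of 20 genes above the other barcodes. The list summed to 13623, 14085 and 16585 CPM in all SC, 5-day and 15-day members and to 18696, 19098 and 20075 CPM in the cleared members. Slc4a4, a sodium bicarbonate cotransporter, stood at 2587, 2605 and 3129.9 CPM, against 158 CPM. The water channel Aqp4 and the potassium channel Kcnj10 were also several-fold above the other barcodes, at 964, 998 and 1091 CPM against 117 CPM and at 451, 508 and 617 CPM against 103 CPM. Of the connexins that couple astrocytes, Gja1 (connexin 43) stood at 1561, 1733 and 1904 CPM, against 328 CPM, and Gjb6 (connexin 30) at 657, 743 and 813 CPM, against 25.8 CPM.

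Receptors that were high in the members were Ednrb, the endothelin B receptor, at 721, 882 and 955 CPM against 56.6 CPM, Fgfr3 at 667, 569.7 and 702 CPM against 22.1 CPM, and Gabbr2, a GABA-B receptor subunit, at 347, 343 and 451 CPM against 37.1 CPM. The insulin receptor gene Insr was present at 68.8, 68.3 and 72.0 CPM, against 40.4 CPM. Receptors of other feeding signals were at or near the detection limit. The leptin receptor gene Lepr had 6, 5 and 2 UMIs in all members of the SC, 5-day and 15-day libraries, the ghrelin receptor gene Ghsr 1, 4 and 2 UMIs and the melanocortin receptor gene Mc4r 1, 3 and 5 UMIs. Among secreted proteins, Apoe, the main lipid carrier of the brain, stood at 14505, 16843 and 17182 CPM, against 7428 CPM, Sparcl1, a synapse-organising matrix protein, at 5444, 5917 and 6935 CPM, against 675 CPM, and Itih3 at 2246, 2299 and 2727 CPM, against 90.1 CPM. Transcription factors of the glial lineage were present at similar levels in the 3 libraries, with Sox9 at 436, 521 and 503 CPM, Id2 at 382, 447 and 446 CPM and the Notch target Hes5 at 381, 382 and 396 CPM. Zbtb20 stood at 1484, 1439 and 1353 CPM, against 932 CPM in the other barcodes. The genes with the largest ratio to the other barcodes included Atp13a4, Grin2c (an NMDA receptor subunit), Egfr and Slc7a11, the cystine transporter, the last at 533, 484 and 555 CPM against 20.3 CPM. Genes of the nuclear-encoded respiratory chain went the other way, since all 30 listed were lower in the members, again without the share of all genes that were lower. Their summed level was 7602, 7876 and 8253 CPM against 12997 CPM. In the cleared members this sum was 5609, 6501 and 6981 CPM. The plot of levels by library sets the libraries beside the other kept barcodes.

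**Figure D1:**
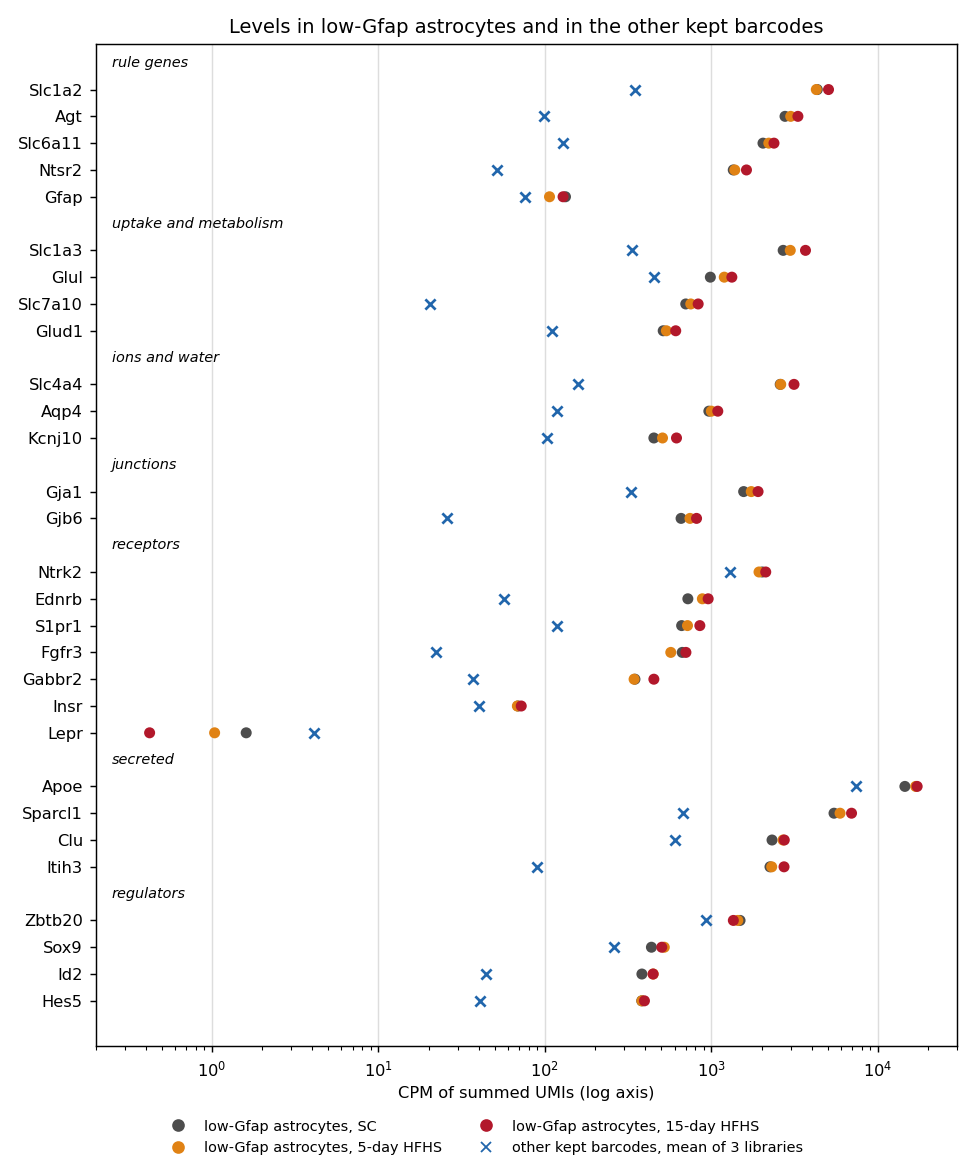
Levels of selected genes, in CPM on a log axis, in low-Gfap astrocytes of the SC, 5-day HFHS and 15-day HFHS libraries and as the mean of the other kept barcodes, grouped by role. The 3 libraries lie close together for most genes, and Slc7a10, for example, stands at 701 to 832 CPM in the members, against 20.4 CPM in the other barcodes.

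To compare shares of cells with a transcript at equal depth, each cell was thinned to 2000 UMIs, which left out 179, 107 and 292 shallower members of the SC, 5-day and 15-day libraries and 29, 37 and 25 microglia. Gfap was then detected in 23.0%, 22.4% and 22.5% of members, against 2.5%, 2.65% and 3.57% of microglia (the Cx3cr1 barcodes), a cell type that should lack it and that shows the background of free RNA. Before thinning the shares were 36.3%, 39.0% and 30.6% of members, against 7.25%, 8.24% and 8.81% of microglia with medians of 6465, 7143.5 and 5711 UMIs. Low-Gfap astrocytes were thus not without Gfap, and its summed level was 133, 107 and 128 CPM. Slc7a10 was detected in 75.9%, 77.3% and 81.4% of thinned members, against 1.36%, 1.77% and 1.87% of thinned microglia, and Insr in 14.2%, 16.3% and 14.6%, against 7.5%, 6.49% and 5.95%. Before thinning, Slc7a10 was detected in 83.8%, 86.5% and 86.6% of members, against 3.2%, 4.79% and 4.73% of microglia, and Insr in 23.0%, 30.3% and 21.6%, against 18.3%, 19.4% and 18.3%. Lepr was detected before thinning in 0.726%, 0.375% and 0.158% of members, against 0.213%, 0.266% and 0.489% of the deeper microglia. These Lepr shares rest on 6, 5 and 2 UMIs, and expression above background was not detectable at this depth.

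Clustering of the 2890 members gave 7 subgroups, each with cells of all 3 libraries. Subgroups 0 (1184 cells), 1 (483) and 2 (907) held 2574 members and carried the astrocyte list at 26381, 27185 and 31921 CPM. By list sums, known markers of protoplasmic and fibrous astrocytes set subgroup 0 apart from subgroups 1 and 2, while single genes were mixed. A protoplasmic list summed to 6521, 5883 and 6051 CPM and a fibrous and surface list to 2147, 2573 and 2804 CPM. Subgroup 0 was thus highest in the first list and lowest in the second. Slc7a10 stood at 1040.0, 1027 and 1107 CPM, Aqp4 at 1125, 1230.5 and 1318 CPM and the intermediate filament gene Vim at 32.9, 31.6 and 30.7 CPM. Of the fibrous and surface list, Id3 stood at 58.1, 95.3 and 234 CPM and Cd9 at 152, 363 and 326 CPM, and of the protoplasmic list Trpm3 stood at 1059.9, 893 and 701 CPM. Subgroups 0, 1 and 2 held 370, 158 and 189 SC, 267, 131 and 304 5-day and 547, 194 and 414 15-day members. These sizes are not compared between diets, since genes that lead subgroups differed between the libraries. Subgroup 0 was led by Prkcd, Daam2, Utp14b, Phka1, Mical2, Nwd1, Grk3 and Trpm3, the last at 1059.9 CPM, against 494 CPM in the other members. It was the shallowest, with a median of 2370 UMIs and 12.5% mitochondrial transcripts. Subgroup 1 was led by Bcas1, the myelin genes Mbp and Mobp, and Fyn, with Mbp at 1484 CPM, against 372 CPM in the other members. Its median was 3153 UMIs, and the astrocyte list stood in it as high as in subgroup 0. Subgroup 2 was led by Id3, Cldn10, Cd302, Rhcg, Pla2g7, Slc3a2, Nkain4 and Fabp7 and was the deepest of these 3, with 4230 UMIs and 7.89% mitochondrial transcripts. Apoe stood in it at 26443 CPM, against 12509 and 14409 CPM in subgroups 0 and 1, and the metallothionein gene Mt1, whose product binds zinc and copper, at 6074 CPM, against 2673 and 2878 CPM. The nuclear-encoded respiratory chain list stood at 9232 CPM in subgroup 2, against 4610 and 5483 CPM in subgroups 0 and 1. Depth and mitochondrial share differed between these subgroups as well, and their part in the differences was not tested.

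Subgroups 3 to 6 were led by genes of other cell types. Subgroup 3 (101 cells, median 9804 UMIs) was led by the neuronal transcripts Snhg11 and Meg3 and the OPC genes Pdgfra, C1ql1 and Pcdh15, with a neuron list at 17832 CPM and the astrocyte list at 5637 CPM. Subgroup 4 (145 cells, 9483 UMIs) was led by genes of ciliated cells such as Ccdc153, Tmem212 and Sntn, with an ependymal list at 11368 CPM and Vim at 1211 CPM. Subgroup 5 (60 cells) was led by the microglial genes C1qb, Ctss and Tyrobp beside an astrocyte list at 20956 CPM. Subgroup 6 (10 cells) was led by the pericyte genes Higd1b and Vtn beside an astrocyte list at 15485 CPM. Together these 316 members held 37.7%, 34.9% and 24.9% of the members' UMIs in the SC, 5-day and 15-day libraries. Subgroups 3 and 4, with the astrocyte list at 5637 and 8004 CPM, went against the label. Subgroups 5 and 6 kept much of the astrocyte list and held transcripts of another cell type beside it. All 4 met the rule but are set apart from subgroups 0 to 2 here.

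**Figure D2:**
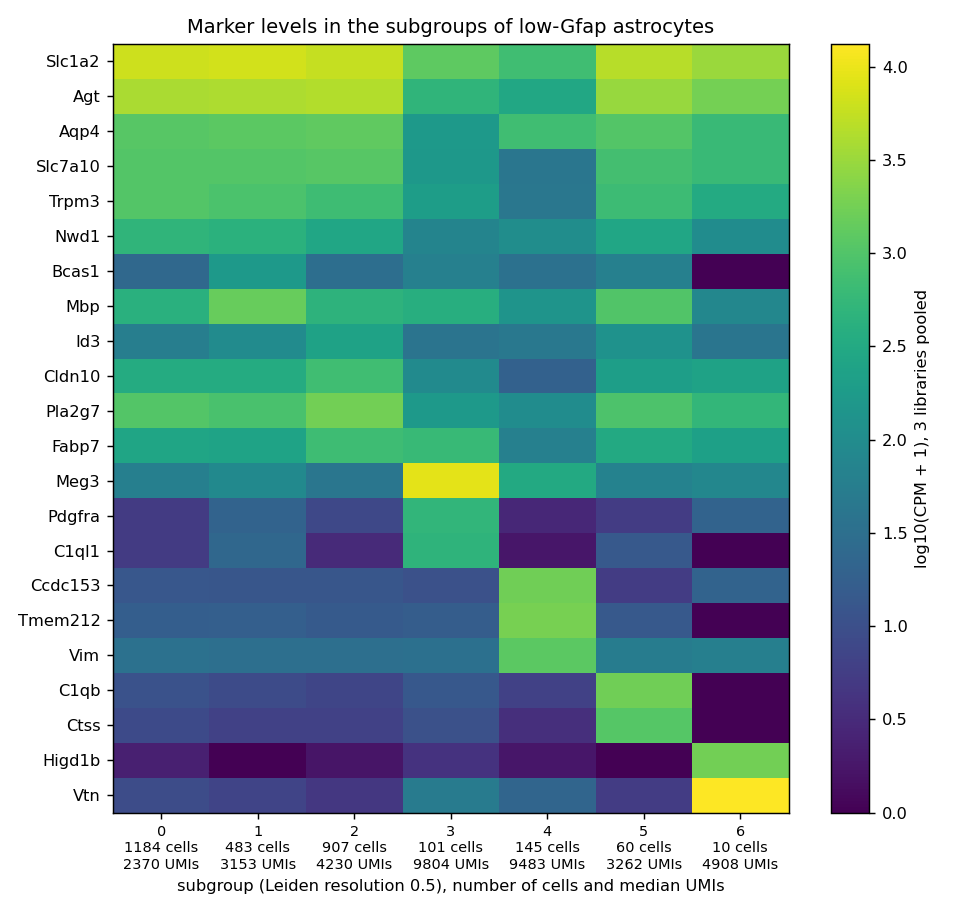
Marker levels, as log10(CPM + 1) with the 3 libraries pooled, in the 7 subgroups of low-Gfap astrocytes, with the number of cells and the median UMIs under each. Slc1a2, Agt, Aqp4 and Slc7a10 are alike in subgroups 0, 1 and 2, while neuronal and OPC genes (subgroup 3), ciliated cell genes (4), microglial genes (5) and pericyte genes (6) mark the other subgroups.

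Within the rule, cells still differed in Gfap, and this axis was followed among cleared members of 2000 to 6000 UMIs. There were 1067 cells with 0 Gfap UMIs, 340 with 1 and 206 with 2 to 4, with medians of 3122, 3317 and 3471 UMIs, and 30 cells outside the rule had 5 or more. C4b, a complement component that is raised in reactive astrocytes, moved with Gfap. It stood at 114 CPM with 0 Gfap UMIs, 170.2 CPM with 1, 229 CPM with 2 to 4 and 514 CPM with 5 or more. The order from 0 to 2 to 4 held in each library: 159, 176 and 245 CPM in SC, 109, 168 and 241 CPM in the 5-day library and 90.9, 167 and 203 CPM in the 15-day library. The log2 ratio of cells with 2 to 4 over cells with 0 was 0.63 [0.17 to 1.07] in SC, 1.15 [0.65 to 1.63] in the 5-day and 1.16 [0.67 to 1.62] in the 15-day library.

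The astrocyte list as a whole did not follow Gfap at matched depth. With 0, 1 and 2 to 4 Gfap UMIs, Slc7a10 stood at 1110.3, 1116 and 1020.1 CPM, Gja1 at 2152, 2207 and 2179 CPM and Vim at 33.1, 31.6 and 32.7 CPM. Agt, 1 of the genes that chose the members, stood at 4252, 4573 and 4658 CPM. Of the 20 genes of the astrocyte list, 11 were higher and 9 lower with 2 to 4 Gfap UMIs than with 0, with a median log2 ratio of 0.01. Across 6784 genes with at least 100 UMIs, 18 (0.265%) were at least 1.5 times higher and 32 (0.472%) at least 1.5 times lower with 2 to 4 Gfap UMIs in all 3 libraries. Most of these had few UMIs per library. Among those higher were C4b, the acute-phase protease inhibitor gene Serpina3n (pooled log2 ratio 0.79 [0.25 to 1.30]), the amino acid transporter gene Slc38a2 (1.28 [0.73 to 1.82]) and Lgals3bp (0.69 [0.22 to 1.14]). Of 7 measured genes of a reactive astrocyte list, 5 were higher, with a median of 0.48, and of 12 protoplasmic genes 3 were higher, with a median of -0.12. The 5 include C4b and Serpina3n, named above, so they are no separate support. The share of all genes higher with 2 to 4 Gfap UMIs is not given here, so these list counts lack a background. All 5 measured microglial genes were higher too, with a median of 0.45, and their part in the C4b difference was not tested.

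**Figure D3:**
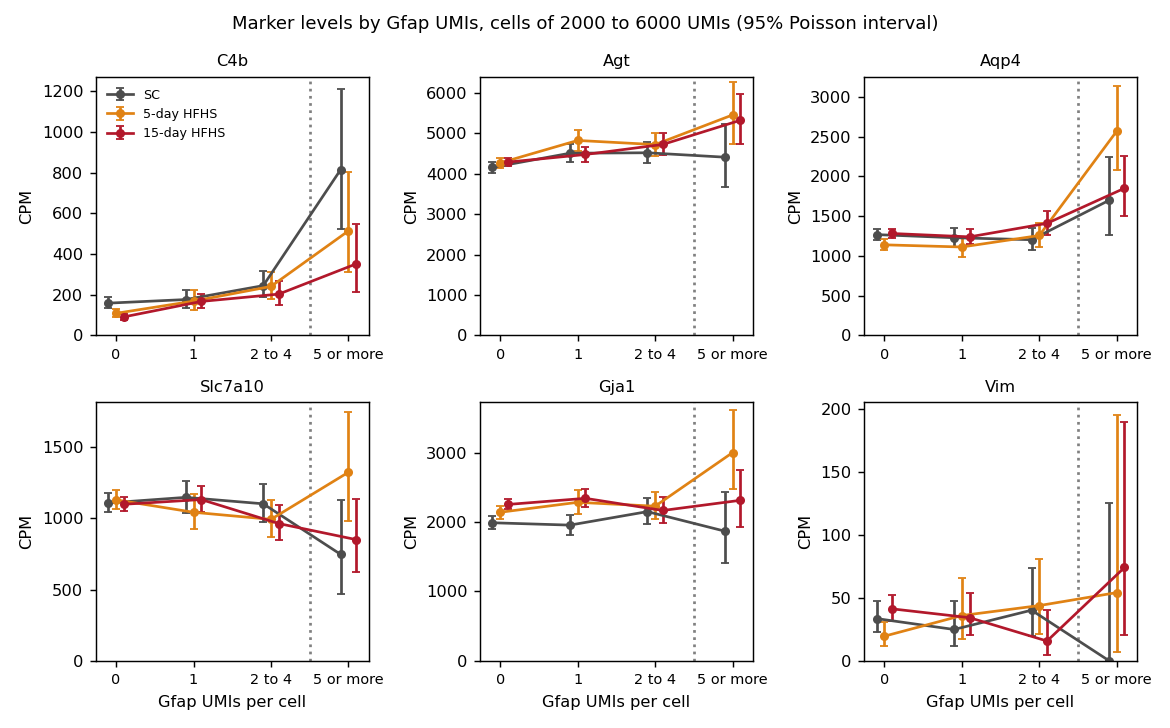
Levels in CPM (with 95% Poisson intervals) of 6 genes by Gfap UMIs per cell, in cells of 2000 to 6000 UMIs with fewer than 5 UMIs of the neuron, OPC, ependymal and pericyte lists, by library (grey SC, orange 5-day HFHS, red 15-day HFHS). Cells right of the dotted line, with 5 or more Gfap UMIs, lie outside the rule. C4b is higher with more Gfap in each library, while Slc7a10 and Gja1 are not.

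Compared with the 237 barcodes that met the same marker limits with 5 or more Gfap UMIs, low-Gfap astrocytes were much shallower, since those had medians of 14504, 12447 and 7076 UMIs. The protoplasmic list stood at 4259, 4433 and 4970 CPM in the low-Gfap astrocytes of the SC, 5-day and 15-day libraries, against a mean of 1331 CPM over the libraries in the high-Gfap barcodes. The ependymal list stood at 2881, 2842 and 1912 CPM in low-Gfap astrocytes, against 8329.8 CPM in the high-Gfap barcodes. In the cleared members the protoplasmic list stood at 6263, 6365 and 6184 CPM and the ependymal list at 308, 262 and 309 CPM. At full depth the high-Gfap barcodes thus carried more transcripts of ciliated cells. The 30 depth-matched ones above had Slc7a10 at 971 CPM and Vim at 49.8 CPM, against 1110.3 and 33.1 CPM in depth-matched members without Gfap UMIs. Other genes differed more. Aqp4 (2033 against 1238 CPM), Id3 (365 against 109 CPM), Cd9 (365 against 212 CPM) and Apoe (25267 against 17166 CPM) were higher in the 30 barcodes. Slc6a11 (2539 against 3129 CPM) and Kcnj10 (481 against 679 CPM) were lower.

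Low-Gfap astrocytes made up 826 of 5116 kept SC barcodes, 799 of 4252 5-day barcodes and 1265 of 5501 15-day barcodes. The shares were 16.1% [15.1 to 17.2], 18.8% [17.6 to 20] and 23.0% [21.9 to 24.1] (exact binomial 95% intervals). The 5-day share exceeded the SC share by a log2 ratio of 0.22 [0.08 to 0.36], and the 15-day share by 0.51 [0.38 to 0.64]. With at most 10% mitochondrial transcripts the shares were 8.82%, 11.3% and 16.2%. Thinning to 2000 UMIs kept the 3956 SC, 3295 5-day and 4189 15-day barcodes with at least 2000 UMIs. With the UMI limits of the rule lowered (such as a marker sum of 3 or more and Gfap below 2), their shares were 15.9%, 20.9% and 21.6%. Both HFHS libraries stood above SC under every limit tried, but the 5-day and 15-day shares had overlapping intervals after thinning. The limit on mitochondrial transcripts was tightened but not relaxed. At 20% it left out 18.9%, 25% and 10.2% of the SC, 5-day and 15-day barcodes that met all marker limits. The part of this limit in the shares was not tested. Diet, pool of mice and preparation cannot be told apart in these shares.

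**Figure D4:**
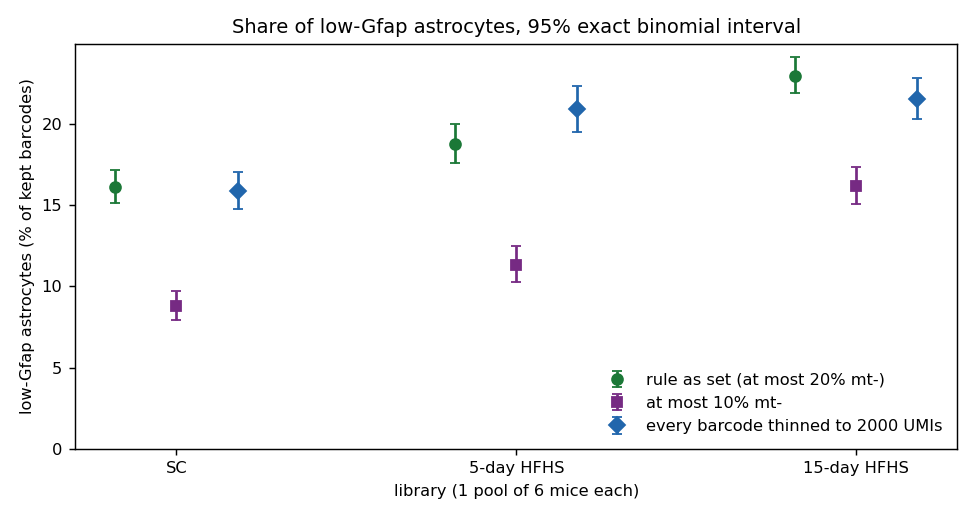
Low-Gfap astrocytes as a percentage of the kept barcodes of each library, with exact binomial 95% intervals. Shown are the rule as set (green), at most 10% mitochondrial transcripts (purple) and thinning to 2000 UMIs (blue). Thinning covered only barcodes of at least 2000 UMIs, with the UMI limits of the rule lowered. Under each limit both HFHS libraries lie above the SC library.

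For the diets, a gene was called when its CPM ratio was 1.5 or more in either direction with a counting interval past a 25% change. Genes were considered if they had 100 UMIs over the pair of libraries and 30 CPM in either. After 5 days of HFHS, 17 of 6483 considered genes (0.262%) were called higher and 18 (0.278%) lower than in SC. Of these, 10 of the 17 and 7 of the 18 were also called in the cleared members. The cleared members had 17 of 5999 genes (0.283%) higher and 24 (0.4%) lower, and the members of subgroups 0 to 2 had 35 of 5977 (0.586%) higher and 47 (0.786%) lower. Without the barcodes shared between libraries 18 genes were higher and 96 lower. The genes below were called in 3 sets, namely all members, cleared members and members without subgroups 3 to 6. These were 8 higher and 7 lower genes after 5 days.

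Of the 8 higher genes, 2 act on fatty acids. Fabp5, a fatty acid carrier, stood at 165, 251 and 250.2 CPM in the SC, 5-day and 15-day libraries, with a log2 ratio of 0.61 [0.47 to 0.75] after 5 days. In subgroup 2 it stood at 398 CPM in the 5-day and 265 CPM in the SC library. In subgroups 0 and 1 it stood at 112 and 122 CPM in the 5-day library, against 93.4 and 122 CPM in SC, with overlapping counting intervals. With each of subgroups 0 to 4 given the same weight in every library (a fixed mix of subgroups), the 5-day log2 ratio of Fabp5 was 0.40 and it was no longer called. Angptl4, an inhibitor of lipoprotein lipase, stood at 31.1, 54.6 and 43.9 CPM (0.81 [0.49 to 1.14]). It was also higher in the 5-day library in high-Gfap astrocytes (1.72), tanycytes (0.77) and oligodendrocytes (2.01). Txnip, a thioredoxin-binding protein that responds to glucose, stood at 77.7, 128 and 88.1 CPM (0.72 [0.52 to 0.93]). Its 5-day ratio was 0.37 in high-Gfap astrocytes, 0.42 in tanycytes, 0.02 in microglia and 0.79 in oligodendrocytes. In subgroups 0, 1 and 2 it stood at 84.6, 129 and 121 CPM in the 5-day library, against 37.1, 66.4 and 84.3 CPM in SC, and in the 15-day library it stood at 66.7, 106 and 79.0 CPM. The neuropeptide gene Oxt stood at 10.7, 49.8 and 7.82 CPM (2.22 [1.73 to 2.74]), and it was higher in the 5-day library in every other cell type set beside it as well, with log2 ratios of 1.31 to 4.03. The other 4 were hemoglobin genes, with 94.2% to 96.8% of their 5-day UMIs in 1 cell.

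Of the 7 lower genes, the largest ratio was that of another neuropeptide gene, Avp, at 92.6, 26.2 and 51.6 CPM (-1.82 [-2.13 to -1.53]). It was lower in the 5-day library in 4 of the 5 cell types set beside it and higher in oligodendrocytes. Npy, a peptide of arcuate feeding neurons, stood at 105, 56.1 and 92.8 CPM (-0.91 [-1.14 to -0.68]). With a marker sum of 5 or more its ratio was 0.29, and it was higher in the 5-day library in tanycytes (2.35), microglia (2.01) and oligodendrocytes (1.4). Mal, a myelin lipid-raft protein, stood at 61.6, 32.8 and 64.7 CPM (-0.91 [-1.21 to -0.61]) and is far higher in the other barcodes, at 2064 CPM. In the cleared members 7 of 8 oligodendrocyte genes were lower after 5 days (median -0.79, 3 called), as were 7 of 8 neuron genes (median -0.42, 2 called) and 5 of 7 neuropeptide genes (median -0.59, 3 called). Their part in the Avp, Npy and Mal values was not tested. Also lower were Daam2, a Wnt pathway regulator that leads subgroup 0, at 197, 126 and 191 CPM (-0.65 [-0.81 to -0.49]), and Ankrd16, at 35.3, 20.1 and 30.4 CPM (-0.81 [-1.20 to -0.42]). Within subgroups 0, 1 and 2 Daam2 stood at 235, 219.6 and 141 CPM in the 5-day library, against 409.6, 210.1 and 222 CPM in SC, so it was not lower in subgroup 1, and at 281, 187 and 218 CPM in the 15-day library. The part of the subgroups' mix in the pooled Daam2 difference was not tested.

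Genes called in all members but not in all 3 sets included Lrp2, a lipoprotein receptor of ependymal cells, at 39.9 CPM in the 5-day and 23.0 CPM in the SC library. Hsd11b1, which reactivates glucocorticoid, stood at 55.6 CPM in the 5-day and 30.8 CPM in the SC library (0.85 [0.53 to 1.18]) and at 55.1 CPM in the 15-day library. Id3, a helix-loop-helix inhibitor, stood at 134 CPM in the 5-day and 80.1 CPM in the SC library (0.74 [0.54 to 0.94]). Id3 leads subgroup 2, and within subgroups 0, 1 and 2 it stood at 38.6, 120.1 and 251 CPM in the 5-day library, against 45.6, 77.4 and 196 CPM in SC. With a fixed mix of subgroups its log2 ratio was 0.42 and it was no longer called.

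After 15 days of HFHS, 35 of 6496 considered genes (0.539%) were called higher and 149 (2.29%) lower than in SC. Only 4 of the 149 were still called among the cleared members, where 43 of 6043 genes (0.712%) were higher and 18 (0.298%) lower. In subgroups 0 to 2, 50 of 6050 (0.826%) were higher and 15 (0.248%) lower. The largest ratios belonged to OPC genes such as C1ql1 (20.1 CPM in the 15-day and 77.1 CPM in the SC library) and Pdgfra (26.8 and 91.0 CPM). Of the OPC list 7 of 8 genes were lower and 6 were called, and of the ependymal list all 10 were lower and 6 were called. In the cleared members 3 of 4 OPC genes and 4 of 8 ependymal genes were lower and none was called. The share of UMIs in the barcodes not cleared was 32.9% in the 15-day and 45.8% in the SC library, and its part in these calls was not tested. Without the barcodes shared between libraries 37 genes were higher and 108 lower.

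Called higher in all 3 sets were 21 genes, 4 of them hemoglobin genes. Fabp5 was among them, at 250.2 CPM in the 15-day and 165 CPM in the SC library (0.60 [0.46 to 0.74]). In subgroups 0, 1 and 2 it stood at 146, 149 and 406 CPM in the 15-day library, against 93.4, 122 and 265 CPM in SC. Its log2 ratio was 0.04 in high-Gfap astrocytes, 0.42 in tanycytes, 0.53 in microglia, 0.15 in oligodendrocytes and 1.30 in endothelial cells. Ptgds, the prostaglandin D synthase, stood at 157 CPM in the 15-day and 73.4 CPM in the SC library (1.10 [0.90 to 1.30]), and it was also higher in the 5 other cell types, by 0.11 to 3.25.

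Other named genes were higher in all 5 cell types set beside the members. The histone gene H2ac18 stood at 63.8 CPM in the 15-day and 2.68 CPM in the SC library, with a log2 ratio of 4.57 [3.68 to 5.65] in low-Gfap astrocytes and 4.40 to 5.91 in the 5 other cell types. Gstp1 (2.10), Bloc1s1 (1.81), Usp50 (1.64), Grcc10 (1.36) and Zfp799 (1.18) were likewise higher in each of them. The 4 hemoglobin genes had 61.0% to 72.9% of their 15-day UMIs in 1 cell. Bloc1s1 and Grcc10 share exons with another gene on the same strand, so the counting could split their reads. The 3 matrices list the same genes, but the counting settings of each library are not given in the sources used here, so a ratio shared by all cell types cannot be told apart from a difference in counting or preparation. Of the 3 genes called lower in all 3 sets, Avp stood at 51.6 CPM in the 15-day and 92.6 CPM in the SC library (-0.85 [-1.09 to -0.61]) and Zfp386, a zinc finger gene, at 23.9 and 41.8 CPM (-0.81 [-1.17 to -0.45]).

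**Figure D5:**
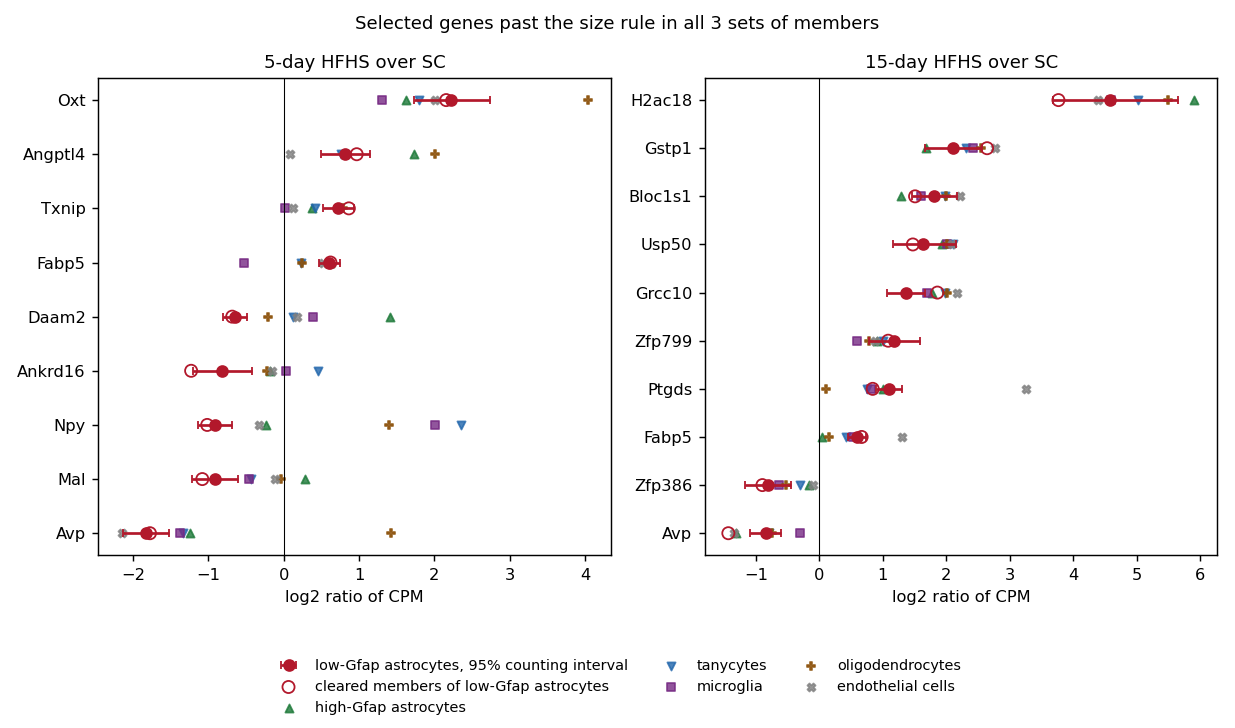
Log2 ratios of CPM, 5-day HFHS over SC (left) and 15-day HFHS over SC (right), for selected genes called in all 3 sets of members. Points with 95% counting intervals are low-Gfap astrocytes, shown beside the cleared members (open circles) and other cell types. Genes such as Gstp1 and H2ac18 are as far to the right in the other cell types, while Daam2 lies left of 0 in low-Gfap astrocytes and right of 0 in high-Gfap astrocytes.

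Gene lists were read by how many measured members, those with at least 50 UMIs, stood higher than in SC. Over all considered genes the median log2 ratio was -0.03 after 5 days, with 43.6% of genes higher, and -0.04 after 15 days, with 41.7% higher. Over the cleared members these were -0.03 with 45.2% higher and 0.01 with 51.7% higher. Cholesterol synthesis stood higher in both HFHS libraries. All 23 genes of the pathway were higher after 5 days, with a median of 0.20, and 22 of 23 after 15 days, with a median of 0.34. None was called after 5 days and 1 after 15 days: Dhcr7, which catalyses the last step to cholesterol, stood at 47.7, 56.9 and 79.0 CPM in the SC, 5-day and 15-day libraries, with a log2 ratio of 0.73 [0.47 to 1.00] after 15 days. Msmo1, a sterol demethylase, stood at 174, 229 and 258 CPM, with ratios of 0.40 [0.26 to 0.54] and 0.57 [0.43 to 0.71]. In the cleared members 21 of 23 (median 0.19) and 20 of 23 (median 0.33) were higher. The pathway summed to 1628, 1814 and 2096 CPM in subgroup 0 and to 1813, 2217 and 2319 CPM in subgroup 2, in which the SC library was lowest each time. In subgroup 1 the sums were 1830.3, 2014 and 2010 CPM.

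Genes of fatty acid handling stood higher as well, 27 of 29 after 5 days (median 0.18) and 23 of 28 after 15 days (median 0.24). Beside Fabp5 and Angptl4, Scd1, a fatty acid desaturase, stood at 133, 177 and 192 CPM (0.42 [0.25 to 0.58] and 0.54 [0.38 to 0.70]) and Fasn, the fatty acid synthase, at 152, 177 and 198 CPM. Neither of these 2 was called. Fabp7, the brain fatty acid carrier, went against the list at 15 days, at 348 CPM in the 15-day and 393 CPM in the SC library. In the cleared members 21 of 26 and 19 of 26 genes of the list were higher, with medians of 0.12 and 0.17.

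The astrocyte list and the respiratory chain list depended on which members were summed. Of 20 astrocyte genes 17 were higher after 5 days (median 0.16) and 20 after 15 days (median 0.28), against 15 (0.14) and 17 (0.11) in the cleared members. The sum of this list in the cleared members was 27316, 29284 and 29377 CPM in the SC, 5-day and 15-day libraries. Of 30 respiratory chain genes 24 were higher after 5 days and 21 after 15 days, each with a median of 0.07, against 30 (0.22) and 29 (0.29) in the cleared members. Within subgroups, the respiratory chain sum was 4008 CPM in the 5-day and 4294 CPM in the SC library in subgroup 0, 4759 and 5362 CPM in subgroup 1, and 9502 and 8158 CPM in subgroup 2, so the 5-day sum was lower in subgroups 0 and 1 and higher in subgroup 2. Subgroup 2, where the list was highest, held 304 of 799 5-day and 189 of 826 SC members, and the part of this mix in the pooled counts was not tested. After 15 days it was higher in subgroups 0, 1 and 2, at 5201, 6231 and 9489 CPM, against 4294, 5362 and 8158 CPM in SC. In the other kept barcodes the list summed to 12091, 12501 and 14399 CPM in the SC, 5-day and 15-day libraries. The higher 15-day sum was thus not particular to the members.

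Lists of reactive and stress genes stood lower in the 15-day members. In the cleared members, where fewer genes were measured, the reactive list stood lower by less and the immediate-early list was not lower. Of 19 reactive astrocyte genes 2 were higher than in SC, with a median of -0.42, and 2 of 8 were higher with a median of -0.10 in the cleared members. Vim stood at 194 CPM in the 15-day and 338 CPM in the SC library, and at 37.1 and 35.1 CPM in the cleared members. Of 24 immediate-early genes, which respond to dissociation, 2 were higher, with a median of -0.42, against 6 of 12 with a median of 0.04 in the cleared members. C4b stood at 116, 92.4 and 105 CPM and Serpina3n at 28.4, 26.4 and 37.6 CPM in the SC, 5-day and 15-day libraries, and neither was called. Of 16 circadian clock genes 11 were higher after 15 days, with a median of 0.19, among them the output genes Dbp, at 102 CPM in the 15-day and 71.8 CPM in the SC library, and Hlf, at 95.3 and 70.7 CPM. Neither was called, and in the cleared members 10 of 16 were higher, with a median of 0.08.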

How the data were processed

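Each matrix lists whole-number UMI counts as the authors deposited them. The submitters' processing notes name Cell Ranger, SAMtools, Scanpy 1.4.4 and GRCm38 without their roles, and the matrix header gives software version 3.1.0. The counter's settings are not given in the sources used here. No barcode had fewer than 500 UMIs. Members and gene lists were chosen with earlier results of these data known.

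UMIs of the members were summed per library and divided by the members' total UMIs (CPM; 3734606, 4816428 and 4733045 UMIs in the SC, 5-day and 15-day libraries). Levels are not divided by gene length, since the kit counts 1 tag per molecule. Sums have exact Poisson intervals, shares exact Clopper-Pearson intervals and ratios exact conditional-binomial intervals, all at 95%. A gene was called past the size rule given in the report, and no p-value was computed. On simulated counts with 50 genes per fold, 5-day recovery was 100% of genes raised 2-fold and 46% of those raised 1.5-fold (6461 genes). In the 15-day comparison (6351 genes) recovery was 100% and 38%. The rule called 0 and 1 unchanged genes. These counts held counting error only, the error that the intervals assume, so few false calls were set in advance. Differences between cells, mice and pools were not simulated.

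Genes were named by rule: the 9 genes of the membership rule, the 20 highest and the 20 with the largest ratio to other barcodes, per comparison the 8 largest ratios in each direction, up to 6 per list and up to 8 leading genes of each subgroup. Gene models, ribosomal protein and mitochondrial genes, and genes with over 25% of their UMIs in 1 cell, were counted and not ranked. Genes called in all 3 sets, those of the Gfap axis, and some genes given for their role (feeding-signal receptors, sterol enzymes), were chosen after their values were seen. The 33 lists hold 565 genes, 4 of them missing from the matrices. Other cell types were set by Rax, Cx3cr1, Cldn5 or Mog at 2 or more UMIs with the other 3 below 2, and high-Gfap astrocytes by Gfap at 5 or more.

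Subgroups came from Scanpy 1.11.5 (2000 variable genes, 20 components, 15 neighbours, Leiden resolution 0.5, seed 0, no integration). Doublets were scored with Scrublet. Its automatic call marked 0, 54 and 84 barcodes, so the highest scores were removed at 0.8% per 1000 barcodes as an alternative, not in the values reported. The other tools were edgeR 4.0.16 for TMM factors under R 4.3.3, SciPy 1.17.1 for intervals, igraph 0.11.9 for Leiden clusters and Matplotlib 3.10.9 for figures, all run from Python 3.11.15. GENCODE of GRCm38 served to mark genes that share exons on a strand, and 31107 of 31253 identifiers were found in it. Some genes are not reported here.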

Additional observations from a re-analysis of the deposited data

Results flagged for a closer look

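In 2 genes the 5-day difference passed the size rule in 1 direction in low-Gfap astrocytes and in the other direction in high-Gfap astrocytes, the cells that met the same marker limits with 5 or more Gfap UMIs. Daam2 had a log2 ratio of 5-day HFHS over SC of -0.65 in low-Gfap astrocytes and of 1.41 in high-Gfap astrocytes. There, other astrocyte genes stood higher in the 5-day library as well, with log2 ratios of 1.29 for Agt, 1.74 for Slc7a10 and 1.76 for Itih3, and their part in the Daam2 value was not tested. Lrp2 had a log2 ratio of 0.79 in low-Gfap astrocytes and of -0.73 in high-Gfap astrocytes. With 1 library per diet the difference was not tested.

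Some barcodes over the mitochondrial limit met the marker limits of the rule. Of the barcodes that met all marker limits, 18.9% [16.5 to 21.4] in the SC, 25% [22.4 to 27.7] in the 5-day and 10.2% [8.63 to 11.9] in the 15-day library lay over 20% mitochondrial UMIs and entered no comparison. Their medians were 1923, 2098 and 1756 UMIs. The difference between libraries was not tested.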

How the results depend on the processing

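No paired analysis was possible because each diet has 1 library. The 3 diets' order of shares was kept under each limit tried, none of which relaxed the mitochondrial limit. The log2 share ratio over SC was 0.36 (5-day) and 0.88 (15-day) with at most 10% mitochondrial UMIs and 0.40 (5-day) after thinning. The count of genes higher after 5 days (17) was 35 without subgroups 3 to 6, 26 with equal weight per cell, 11 without the top cell of each gene and 50 without the CPM limit. The count lower after 5 days (18) was 58 with at most 10% mitochondrial UMIs, 41 with a marker sum of at least 20, 96 without shared barcodes, 47 without subgroups 3 to 6, 71 with equal weight and 65 without the CPM limit. The count higher after 15 days (35) was 108 with at most 10% mitochondrial UMIs, 72 with a marker sum of at least 5 and 74 without the CPM limit. The count lower after 15 days (149) was 345 with at most 10% mitochondrial UMIs, 248 with a marker sum of at least 5, 18 in the cleared members, 15 without subgroups 3 to 6, 21 after thinning, 97 with equal weight, 330 without the CPM limit and 26 with a fixed mix of subgroups. The cause was not tested.

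Called genes that changed direction after 5 days were Lrp2 (-0.69 in the cleared members, -0.51 thinned), Dnajc6 (-0.35 in the cleared members, -0.31 without subgroups 3 to 6), Hbb-bt (-0.15) and Npy (0.29) with a marker sum of at least 5, Vtn (0.21 with doublets removed) and Gpr17 (0.04 thinned). After 15 days they were Qpct (0.54 and 0.20) and Dgat2 (0.76 and 0.85) in the cleared members and without subgroups 3 to 6, C1qb (0.53, fixed mix), Ins2 (0.43 with at most 10% mitochondrial UMIs, 0.10 with a marker sum of at least 20, 0.09 with doublets removed, 0.08 without the top cell and 0.08 with a fixed mix) and Sst (0.70 in the cleared members, 0.64 without subgroups 3 to 6, 0.14 with equal weight and 0.17 without the top cell).

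Over all named genes and settings, 899 values kept their side of the size rule, 137 kept direction and were no longer called, 57 were newly called and 22 reversed. Direction was checked only for genes called in all members. The sets without subgroups 3 to 6 and without shared barcodes, the matched-depth Gfap classes and the levels within subgroups were chosen after seeing the data. Other scalings moved the median ratio by at most 0.05. Shallow members limit single genes to those with 100 UMIs per pair.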

Other observations

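Members were set beside the barcodes over 20% mitochondrial UMIs that met the same marker limits, in CPM of non-mitochondrial UMIs. Agt stood at 3051, 3307 and 3643 in the members of the SC, 5-day and 15-day libraries, against 3222, 2839.7 and 3138 in the barcodes over the limit. Apoe stood at 16007, 18625 and 18945 in the members, against 10244, 9085 and 10546, and Gja1 at 1722, 1916 and 2099.7, against 1151, 1039 and 879. Apoe and Gja1 were thus higher in the members in each library, while Agt was not.

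Genes held by few cells gave large ratios. S100a8 and S100a9, neutrophil genes, stood at 72.7 and 82.2 CPM in the 5-day members, with 99.4% and 100% of their UMIs in 1 cell, and Dcn, a fibroblast gene, at 32.3 CPM in the 15-day members, with 95.4% in 1 cell.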
